A study of Homo sapiens with 6 samples.

Results

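The NRF2 target antioxidant genes described here are NQO1, HMOX1, GCLM, GCLC, TXNRD1, SRXN1, SLC7A11, AKR1C1, AKR1C2 and AKR1C3. They were chosen by symbol from knowledge of the pathway, with earlier results of these data known. Counts of them set beside the share of all genes are therefore descriptions and not tests. All 10 were found among the 59008 gene symbols of the expression table. All 10 also passed the filter on low values, a mean of at least 1 TPM over the libraries, as did 14988 symbols in all. TPM (transcripts per 1000000) is the share of a library's transcript molecules assigned to a gene, scaled to a fixed total and corrected for transcript length, so levels can be compared between genes.

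RNA sequencing was carried out on the established human ovarian cancer lines Hey and SKOV3, each in 3 states, with 1 library per line and state and 6 libraries in all. Parental cells were untreated. Polyploid giant cancer cells (PGCCs), enlarged cells with multiplied genomes, were the cells left after 500 nM paclitaxel for 16 h and, by the treatment labels, 3 days of recovery, although the title of the SKOV3 PGCC library gives day 7. Daughter cells had received the same paclitaxel exposure and 30 days of recovery, and the labels name 1 clone for each line. Hey was grown in Eagle's minimal essential medium and SKOV3 in RPMI-1640, so line and medium cannot be told apart. No condition was replicated, so no value below has a replicate error, and differences within a line carry no test. In bulk RNA of this kind, fewer cells that express a gene and less of its RNA per cell cannot be told apart.

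NRF2, the product of NFE2L2, is a transcription factor that KEAP1 normally captures and hands to the proteasome. Oxidants and electrophiles modify KEAP1, NRF2 then escapes degradation, pairs with a small MAF protein and binds antioxidant response elements (AREs) near its target genes. BACH1 competes for the same elements, most clearly at HMOX1. The targets rebuild glutathione, reduce thioredoxin and peroxiredoxin, and detoxify quinones, haem and carbonyls. In cancer cells the pathway is known for its part in tolerance of oxidative stress and of several drugs. Because NRF2 is controlled mainly through its protein, which was not measured here, the level of NFE2L2 mRNA does not give its activity.

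Elements with the letters of an ARE are shown first because they are the feature by which this group is usually defined. The strict form searched, TGACTCAGC on either strand, was found in the 5000 bases before the start of 3 of the 10 genes, compared with 6.46% of 20004 protein-coding genes. The sequences are from hg38, 5′ to 3′ along the gene's own strand, and the capitals mark the letters of the element, which appear as their reverse complement in HMOX1 and GCLC.
NQO1, chr16:69726997-69727025, minus strand, 455 bases before the start: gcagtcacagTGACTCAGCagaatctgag
HMOX1, chr22:35377146-35377174, plus strand, 3940 bases before the start: gctagattttGCTGAGTCAccagtgcctc
GCLC, chr6:53548239-53548267, minus strand, 3156 bases before the start: cgcacaaagcGCTGAGTCAcggggaggcg
The element in NQO1 and those in HMOX1 and GCLC hold the same 9 letters on opposite strands. In GENCODE 44 the NQO1 element lies in an exon of the divergent transcript NQO1-DT, that of HMOX1 in an exon of an unnamed gene (ENSG00000282041), and that of GCLC in an intron of longer GCLC transcripts. All 3 elements also contain the AP-1 motif TGACTCA, which alone was present before 6 of the 10 genes and before 53.1% of all protein-coding genes. The looser ARE core, TGACNNNGC, was present before 8 of the 10 genes, but before 83.7% of all genes, so in a window of this length it does not set the group apart.

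In the shorter RefSeq promoter windows (GRCh38.p14, 250 bases before to 50 after a start), which were matched for 8 of the 10 genes, the loose core was found in 3 of 10 windows, compared with 13.3% of 35116 windows. The matches belonged to GCLM and TXNRD1, and those that lay wholly before the RefSeq start are given here with the core in capitals.
GCLM, chr1:93909446-93909474, minus strand, 34 bases before the start: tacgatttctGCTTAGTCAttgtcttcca
TXNRD1, chr12:104286920-104286948, plus strand, 102 bases before a start: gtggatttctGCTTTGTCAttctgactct
TXNRD1, chr12:104215670-104215698, plus strand, 99 bases before a more upstream start: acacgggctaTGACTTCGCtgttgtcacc
The GCLM element and the first TXNRD1 element are on the same strand relative to the gene, whereas the second TXNRD1 element is on the other strand. In GENCODE 44 the printed stretches of GCLM and of the first TXNRD1 element overlap exons of other starts of these genes, and the second TXNRD1 stretch lies outside any gene. Each of these is a match of letters, and binding was not measured.

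The AKR1C genes stood together on chromosome 10, where AKR1C1 (chr10:4963253-4983283, plus strand), AKR1C2 (chr10:4987775-5018031, minus strand) and AKR1C3 (chr10:5035354-5107686, plus strand) span 144 kb in GENCODE 44. Their transcripts are closely related. Of the 31-base words in the canonical AKR1C2 transcript, 58.2% also occurred in that of AKR1C1, so the division of reads between AKR1C1 and AKR1C2 is uncertain, and their sum is given where it matters. The other 7 genes lay on separate chromosomes and shared no such word with any other of the listed genes.

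The libraries differed in ways that bear on these genes. Mitochondrial genes held 2.64% of TPM in Hey parental cells and 12.3% in Hey PGCCs, with 7.37% to 14.8% in the other 4 libraries. In SKOV3 PGCCs compared with parental cells, GC-rich transcripts were the higher ones (Spearman correlation 0.72 of difference and GC content across 13468 genes, which are not independent), whereas in Hey PGCCs the correlation was -0.045. The GC content of the 10 genes ran from 35.4% (SLC7A11) to 57.7% (HMOX1). ERBB2, which is amplified in SKOV3, was at 1127 to 1778 TPM in the SKOV3 libraries and 8.20 to 14.1 TPM in the Hey libraries. Of 10 epithelial markers, 5 to 7 reached 1 TPM in the Hey libraries and 9 or 10 in the SKOV3 libraries. Their sum was 1114 to 2042 TPM in Hey and 1434 to 3346 TPM in SKOV3, so the lines overlapped in it. CDH1 was near 0 in Hey and at 1.47 to 8.35 TPM in SKOV3, whereas KRT7 was at 312 to 851 TPM in Hey and 417 to 930 TPM in SKOV3. Of 8 immune markers 0 to 2 reached 1 TPM, their sum was 46.5 to 70.3 TPM in Hey and 1.96 to 20.7 TPM in SKOV3, and nearly all of it in Hey was CD68 while PTPRC was near 0. Of 5 endothelial markers 0 or 1 reached 1 TPM, their sum was 33.7 to 49.1 TPM in Hey and 0.343 to 2.92 TPM in SKOV3, and nearly all of it in Hey was CDH5 while PECAM1 was near 0. Of 10 mesenchymal markers, 2, 4 and 2 reached 1 TPM in Hey parental cells, PGCCs and daughter cells, and 5, 4 and 5 in SKOV3. Their sum was 4171 to 7388 TPM in Hey and 1003 to 2903 TPM in SKOV3, and nearly all of it in both lines was VIM. The part of these lists in the differences between lines was not tested.

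The first question was how the group stood in PGCCs, the surviving cells, compared with parental cells. In Hey, every one of the 10 genes was highest in the PGCC library (9 with median ratio scaling, which turned GCLC), which was the case for 34.5% of all genes tested. In SKOV3, 6 of the 10 were instead highest in daughter cells, as were 42.5% of all genes, and AKR1C1, AKR1C2 and AKR1C3 were highest in PGCCs. With the joint trend over GC content and transcript length removed, GCLM and GCLC were no longer higher in SKOV3 daughter cells than in PGCCs. Differences are given on the log2(TPM + 1) scale, on which 1 is about 2-fold in TPM at high levels and more than 2-fold at low ones, and a gene is counted as higher or lower where the difference reached 1. By this measure 5 of the 10 genes were higher in Hey PGCCs than in parental cells (NQO1, HMOX1, GCLM, AKR1C1 and AKR1C3), compared with 7.67% of all genes, and none was lower (background 5.22%). In SKOV3 PGCCs 3 of the 10 were higher (HMOX1, AKR1C1 and AKR1C2), compared with 9.94% of all genes, and none was lower (background 4.96%). With that trend removed the count in SKOV3 was 2, HMOX1 being at 0.78. The count in Hey was 4 with the trend removed or with median ratio scaling, AKR1C3 falling below 1. The median difference of the 10 genes was 0.81 in Hey and 0.33 in SKOV3, where that of all genes was 0.00 and 0.02.

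**Figure D1:**
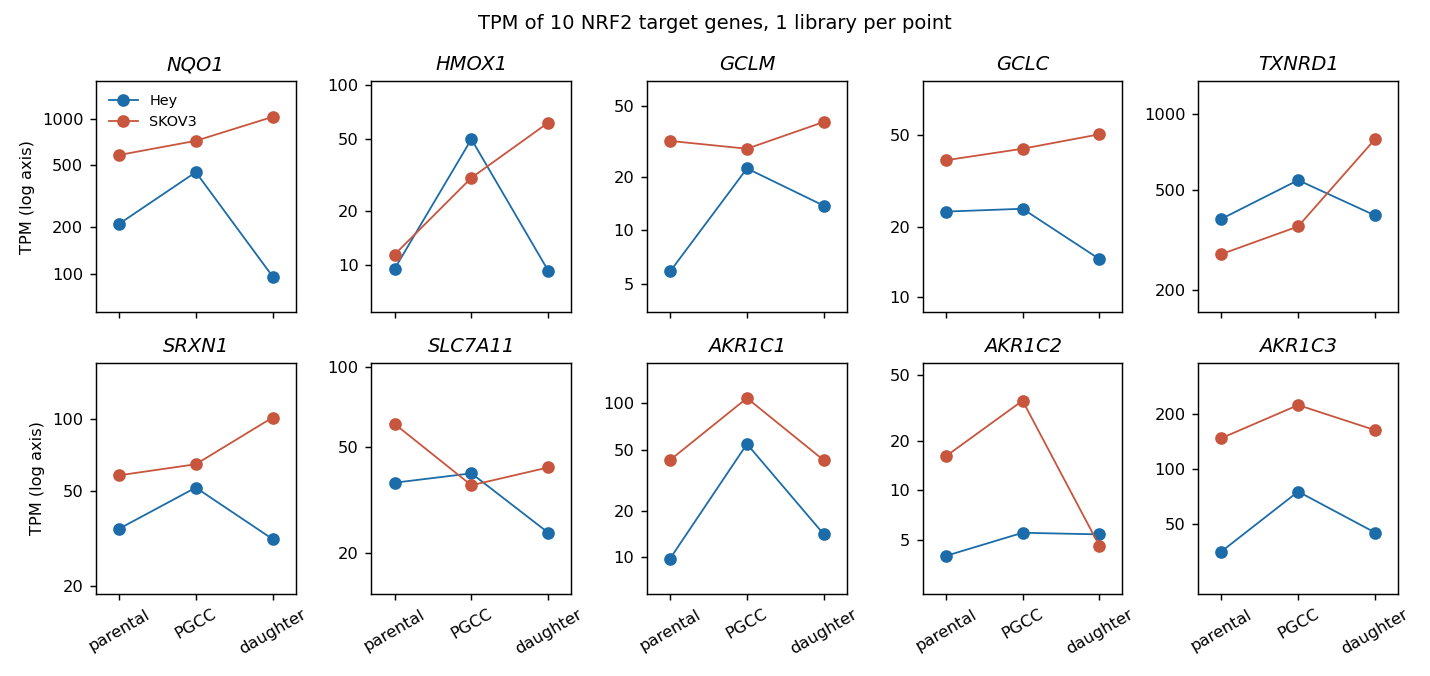
Level of each NRF2 target gene in TPM on a log axis, 1 point per library, by state, with Hey and SKOV3 in separate colours. All 10 Hey profiles peak in PGCCs, whereas 6 of the 10 SKOV3 profiles peak in daughter cells; there are no replicates and hence no error bars.

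The second question was what remained in daughter cells. In Hey, 1 gene was higher than in parental cells (GCLM, background 6.31%) and 1 was lower (NQO1, background 3.73%), and the median difference was 0.01. Compared with Hey PGCCs, no gene was higher in daughter cells (background 9.95%) and 3 were lower (NQO1, HMOX1 and AKR1C1, background 8.13%). In SKOV3 daughter cells 2 genes were higher than in parental cells (HMOX1 and TXNRD1), compared with 15.1% of all genes, and AKR1C2 was lower (background 6.34%). The 2 higher of 10 is thus near the share among all genes, and the same holds for the count against SKOV3 PGCCs, where TXNRD1 alone was higher (background 14.6%) and AKR1C1 and AKR1C2 were lower (background 9.25%). Median ratio scaling took GCLM in Hey daughter cells to 0.998 and TXNRD1 in SKOV3 daughter cells minus PGCCs to 0.994, which ended both calls, and in the latter comparison 2 genes were higher with a pseudocount of 0.1 or without mitochondrial genes. With the trend over GC content and transcript length removed, TXNRD1 was at 0.78 in that comparison and HMOX1, at 1.35, was the higher gene instead. The 3 comparisons within a line share libraries and are not independent of each other.

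NQO1 reduces quinones with 2 electrons at once and so avoids the reactive semiquinone. Its level in Hey was 210 TPM in parental cells, 453 TPM in PGCCs and 96.6 TPM in daughter cells. In SKOV3 it was 584, 720 and 1027 TPM in the same order. The order of the states therefore differed between the lines, with daughter cells lowest in Hey and highest in SKOV3. On the log2 scale Hey PGCCs were 1.10 above and Hey daughter cells 1.11 below the parental level (a log2 difference of -1.11), while SKOV3 PGCCs and daughter cells were 0.30 and 0.81 above theirs. NQO1 was among the most abundant genes throughout, ranking 99 of 14988 in SKOV3 daughter cells and 1390 in Hey daughter cells.

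HMOX1 opens the haem ring to release iron, carbon monoxide and biliverdin. In Hey it was at 9.54 TPM in parental cells, 49.9 TPM in PGCCs and 9.31 TPM in daughter cells. In SKOV3 it was at 11.4, 30.5 and 61.6 TPM. The parental levels were thus alike in both lines and PGCCs were higher in both, by 2.27 and 1.34 on the log2 scale, but the Hey daughter cells were back near the parental level (-0.03, or 0.038 without mitochondrial genes) and the SKOV3 daughter cells were higher still (2.33). The SKOV3 PGCC value was 0.78 with the joint trend over GC content and transcript length removed, and so no longer reached 1.

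GCLM is the modifier subunit and GCLC the catalytic subunit of glutamate-cysteine ligase, the rate-limiting enzyme of glutathione synthesis. GCLM was at 5.85 TPM in Hey parental cells, 22.3 TPM in PGCCs and 13.7 TPM in daughter cells. In SKOV3 it was at 31.8, 28.7 and 40.7 TPM. Hey parental cells stood apart as the lowest library, and the 1.76 of Hey PGCCs over parental cells had no counterpart in SKOV3 (-0.14). GCLC differed less between states, at 23.4, 24.0 and 14.6 TPM in Hey and at 38.9, 43.7 and 50.4 TPM in SKOV3. The place of Hey PGCCs above parental cells for GCLC (0.04) turned to -0.035 with median ratio scaling. As a result the ratio of GCLC to GCLM was 3.99 in Hey parental cells and between 1.06 and 1.52 in the other 5 libraries.

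SLC7A11 imports the cystine from which cells make the cysteine of glutathione. It was at 36.8, 39.9 and 23.9 TPM in Hey parental cells, PGCCs and daughter cells, and at 61.3, 36.0 and 42.0 TPM in SKOV3. SLC7A11 was the only one of the 10 genes that was highest in the parental library of SKOV3, and no difference reached 1 in either line. SKOV3 PGCCs were 0.75 below parental cells (a log2 difference of -0.75), and -0.23 with the trend over GC content and transcript length removed.

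TXNRD1 is the cytosolic reductase that recharges thioredoxin, and SRXN1 restores peroxiredoxins that have been overoxidised. TXNRD1 was at 383, 545 and 395 TPM in Hey parental cells, PGCCs and daughter cells. In SKOV3 it was at 278, 358 and 792 TPM. Daughter cells exceeded parental cells by 0.05 in Hey, which turned to -0.083 with median ratio scaling, and by 1.51 in SKOV3. SRXN1 was at 34.7, 51.7 and 31.4 TPM in Hey and at 58.3, 64.9 and 102 TPM in SKOV3, with the same order of states as TXNRD1 in SKOV3 and no difference of 1 within either line. NQO1 and TXNRD1 together held 65.4% to 78.8% of the summed TPM of the 10 genes, so the sum mainly follows this pair.

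AKR1C1, AKR1C2 and AKR1C3 are aldo-keto reductases that reduce steroids, prostaglandins and lipid aldehydes. AKR1C1 was at 9.82 TPM in Hey parental cells, 54.5 TPM in PGCCs and 14.1 TPM in daughter cells. In SKOV3 it was at 42.9, 108 and 42.7 TPM. In both lines AKR1C1 was high in PGCCs and near the parental level in daughter cells, with differences from parental cells of 2.36 and 1.32 for PGCCs and of 0.48 and -0.01 for daughter cells.

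AKR1C3 was also highest in PGCCs of both lines, and at higher levels, with 35.6, 75.4 and 45.2 TPM in Hey and 147, 223 and 163 TPM in SKOV3. PGCCs exceeded parental cells by 1.06 in Hey, or 0.99 with median ratio scaling, and by 0.59 in SKOV3. AKR1C2 was low in Hey, at 4.01, 5.54 and 5.41 TPM, and in SKOV3 was at 16.1, 35.0 and 4.62 TPM. AKR1C2 was therefore lower in SKOV3 daughter cells than in parental cells by a log2 difference of -1.61, where that of AKR1C1 was -0.01. Since the pair shares sequence, the sum of AKR1C1 and AKR1C2 was also taken: it was 13.8, 60.1 and 19.5 TPM in Hey and 59.0, 143 and 47.3 TPM in SKOV3. PGCCs held the highest sum in both lines. AKR1C1, AKR1C2 and AKR1C3 were the members that were highest in PGCCs in both lines, which 9.01% of all genes were. For AKR1C2 in Hey this was nearly a tie at a low level, with daughter cells at -0.03 from PGCCs. The other pattern, highest in Hey PGCCs and in SKOV3 daughter cells, held for NQO1, HMOX1, GCLM, GCLC, TXNRD1 and SRXN1 and for 16.3% of all genes. GCLC left this pattern with median ratio scaling, at -0.035 in Hey PGCCs minus parental cells. With the trend over GC content and transcript length removed, GCLM (-0.10) and GCLC (-0.14) were lower in SKOV3 daughter cells than in PGCCs.

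**Figure D2:**
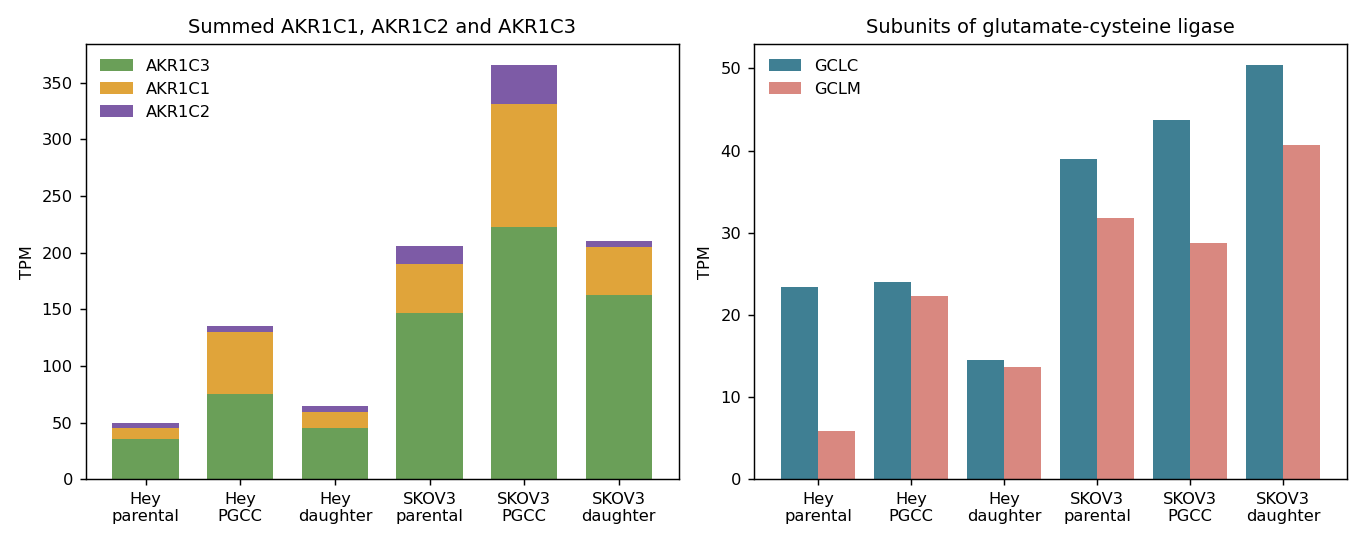
Make-up of the AKR1C genes and of glutamate-cysteine ligase in each of the 6 libraries, in TPM. The AKR1C sum was 49.4, 135 and 64.7 TPM in Hey parental cells, PGCCs and daughter cells and 206, 366 and 210 TPM in SKOV3, and GCLC exceeded GCLM most in Hey parental cells.

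AKR1C3 made up most of the AKR1C sum in every library, from 55.7% in Hey PGCCs to 77.5% in SKOV3 daughter cells. The share of AKR1C1 was 40.3% in Hey PGCCs and 29.6% in SKOV3 PGCCs, and 19.9% to 21.8% in the other 4 libraries. AKR1C4, the liver member of the cluster, was listed at 0 in every library except Hey PGCCs, at 0.0848 TPM.

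With the lines as the only repeat, PGCC and parental libraries were compared in a limma model with terms for state and line, over the 14988 genes. None of the 10 genes passed an adjusted p of 0.05 in limma, where 1 gene of all tested was higher and 2 were lower. At the unadjusted threshold of 0.05, 2 of the 10 were higher and 0 lower (174 genes higher, 1.16%, and 235 lower of all). They were AKR1C1 (1.84, SE 0.408, limma adjusted p = 1) and HMOX1 (1.81, SE 0.728, limma adjusted p = 1), each higher in both lines. Between daughter cells and PGCCs, AKR1C1 was the only one of the 10 past the unadjusted threshold, being lower in daughter cells (-1.60, SE 0.408, limma adjusted p = 0.908). No gene of all tested passed the adjusted threshold in limma, while 461 were higher and 297 lower (1.98%) at the unadjusted one. Between daughter and parental cells, 0 of the 10 genes passed in limma at either threshold, with 0 genes higher and 2 lower of all tested after adjustment and 364 higher and 144 lower before it. The model has 2 residual degrees of freedom, and a difference that runs in opposite directions in the lines counts in it as error.

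**Figure D3:**
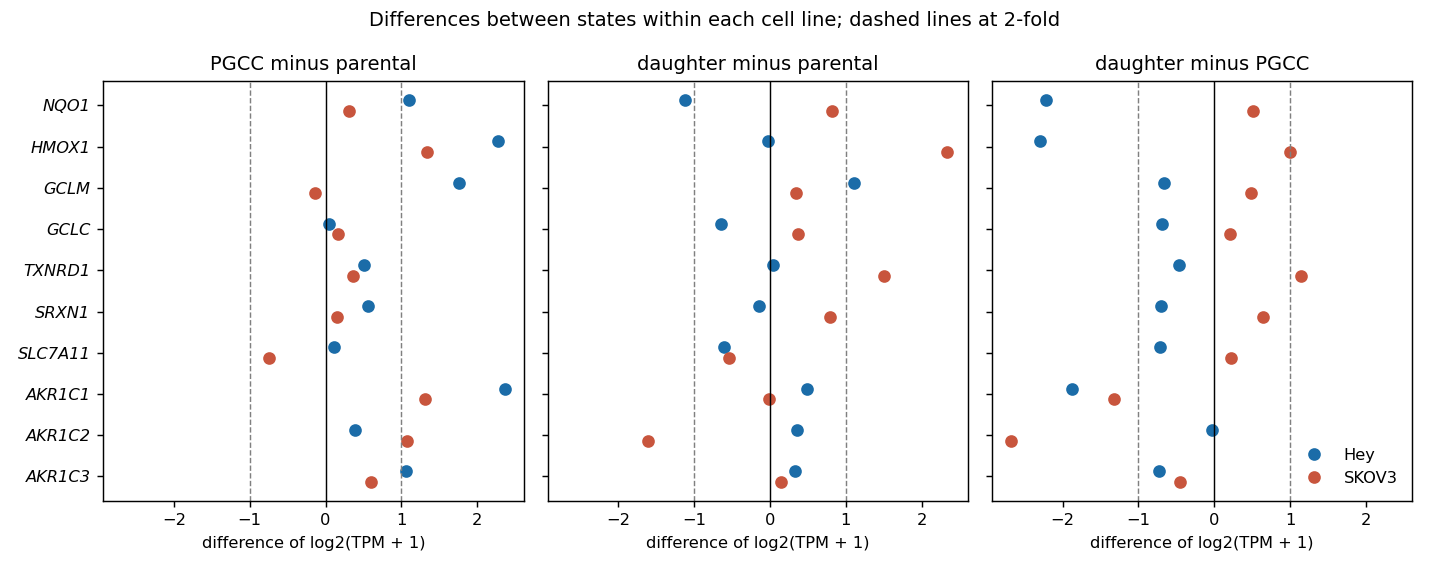
Difference of log2(TPM + 1) for each of the 10 genes in the comparisons of states within Hey and within SKOV3, without error bars since each state had 1 library. HMOX1 and AKR1C1 lie above 1 in PGCCs of both lines, and NQO1 in daughter cells lies on opposite sides of 0 in the lines.

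The third question was how the lines differed in the same state. SKOV3 held more of most of these genes, and in 5 of the 10 (NQO1, GCLM, GCLC, SRXN1 and AKR1C3) the lowest SKOV3 library exceeded the highest Hey library. That was so for 31.8% of all genes, and the opposite, seen for none of the 10, for 12.8%. Among parental libraries 5 genes were higher in SKOV3 (NQO1, GCLM, AKR1C1, AKR1C2 and AKR1C3, background 24.2%), with GCLM at 5.43-fold and AKR1C1 at 4.37-fold by TPM. Among PGCC libraries 2 were higher (AKR1C2 and AKR1C3, background 29.6%), and AKR1C1 fell just short of the threshold at 0.98. That count is near the share among all genes. Among daughter libraries 8 were higher, all but SLC7A11 and AKR1C2, compared with 29.5% of all genes, and NQO1 differed most, at 10.6-fold. TXNRD1 was the nearest to the threshold there (1.00) and was at 0.59 with median ratio scaling. None was lower in SKOV3 in any state (background 11.5%, 13.4% and 12.3%), but with the trend over GC content and transcript length removed HMOX1 was lower in SKOV3 PGCCs (-1.59). The medians of the 10 genes were 1.10, 0.51 and 1.60 for parental cells, PGCCs and daughter cells, and those of all genes were 0.29, 0.35 and 0.38.

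**Figure D4:**
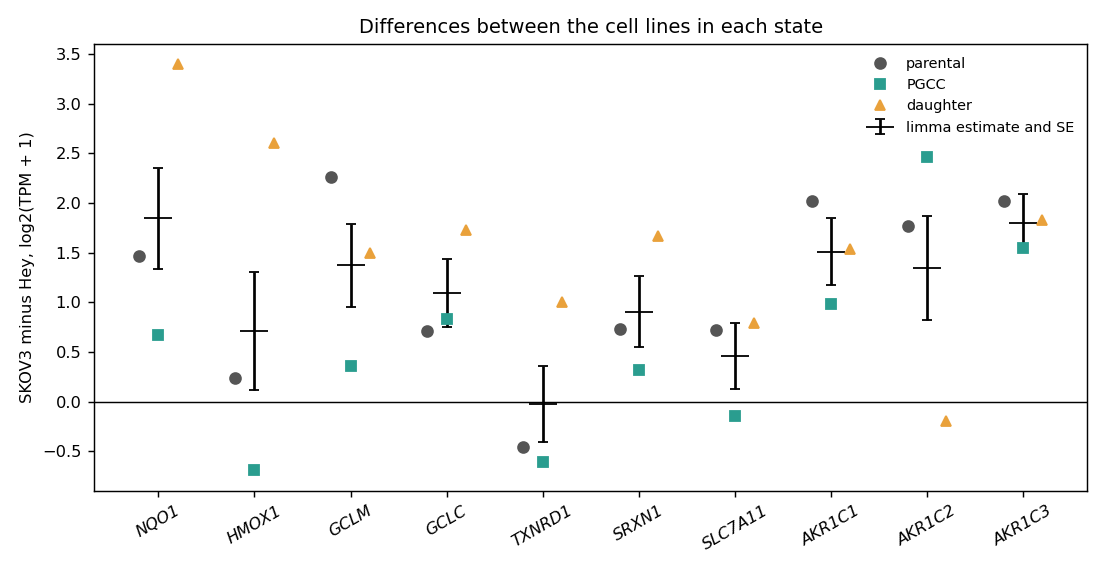
Difference of log2(TPM + 1), SKOV3 minus Hey, for each of the 10 genes in parental cells, PGCCs and daughter cells, with the limma estimate over the states and its SE as black bars. The daughter points are the highest for NQO1 (3.40) and HMOX1 (2.60), whereas AKR1C2 has its daughter point at -0.19.

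In the limma model the states of a line are the only repeats of that line. The SE of the line term is thus the spread of the line difference over states, not between independent cultures of a line. Line and medium also cannot be told apart. The line term, read after the data were seen, passed an adjusted p of 0.05 for 3 of the 10 genes. Among all genes it passed for 2153 higher (14.4%) and 940 lower (6.27%) in SKOV3. AKR1C3 was higher in SKOV3 by 1.80 (SE 0.291, limma adjusted p = 0.00677), AKR1C1 by 1.51 (SE 0.333, limma adjusted p = 0.0203) and NQO1 by 1.84 (SE 0.505, limma adjusted p = 0.0414), each in 3 of 3 states. GCLM (1.37, SE 0.419, limma adjusted p = 0.0567) did not pass. TXNRD1 had the smallest term, -0.02 (limma adjusted p = 0.973), being higher in Hey in parental cells and PGCCs and higher in SKOV3 in daughter cells. With median ratio scaling NQO1 no longer passed (limma adjusted p = 0.0774), and without the filter on low values none of the 10 did. Over genes with a mean of at least 5 TPM, 5 of the 10 passed, GCLM (limma adjusted p = 0.0414) and GCLC (limma adjusted p = 0.0486) being the added ones.

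Of 14 regulator genes of the pathway, 1 was higher in Hey PGCCs than in parental cells (7.67% of all genes), 0 in SKOV3 PGCCs (9.94% of all genes), and none was lower in either, with medians of 0.22 and 0.05. NFE2L2 was at 115, 130 and 65.0 TPM in Hey parental cells, PGCCs and daughter cells and at 142, 97.3 and 135 TPM in SKOV3, so no state of either line differed from its parental library by 1. Hey daughter cells had the lowest NFE2L2, with a difference of -0.81 from parental cells. KEAP1 was at 25.9, 19.6 and 24.5 TPM in Hey and 31.1, 45.4 and 25.1 TPM in SKOV3.

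SQSTM1, the autophagy receptor p62 that draws KEAP1 away from NRF2 and is itself an NRF2 target, was the regulator that was higher in Hey PGCCs. It was at 278, 596 and 334 TPM in Hey and at 117, 204 and 304 TPM in SKOV3. SQSTM1 was thus highest in PGCCs in Hey and in daughter cells in SKOV3, as were 6 of the 10 genes above at the main settings and 16.3% of all genes. A link between SQSTM1 and these genes was not tested. BACH1 was at 66.2, 64.0 and 60.3 TPM in Hey and at 19.5, 13.4 and 21.2 TPM in SKOV3, so the repressor was lower in SKOV3 in every state, with differences between -1.47 and -2.18. Among the small MAF partners, MAFK was at 3.53, 7.07 and 3.79 TPM in Hey and at 2.14, 4.38 and 4.37 TPM in SKOV3. MAFG was at 11.6, 20.1 and 11.5 TPM in Hey and 21.7, 29.0 and 25.0 TPM in SKOV3, and MAFF at 26.8, 40.2 and 17.3 TPM and 20.9, 19.9 and 14.1 TPM.

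Of 36 other known NRF2 targets, 33 passed the filter. In Hey PGCCs 7 of the 33 were higher than in parental cells and 0 lower (median 0.30), beside 7.67% higher and 5.22% lower of all genes. In SKOV3 PGCCs 7 were higher and 0 lower (median 0.33), beside 9.94% and 4.96% of all genes. This SKOV3 comparison carries the trend over GC content (Spearman correlation 0.72). Values with the trend removed were read for the 10 genes only, not for this or any other gene list here. In Hey, TRIM16L went from 2.13 to 15.0 TPM, PIR from 0.337 to 3.86 TPM and FTL, the light chain of ferritin, from 2137 to 6963 TPM. In SKOV3, ALDH3A1, an aldehyde dehydrogenase, went from 4.95 to 24.4 TPM and TKT, a transketolase, from 129 to 430 TPM. The genes with the largest differences were thus not the same in both lines. OSGIN1 (1.65 in Hey and 1.12 in SKOV3) and ABCC3 (1.39 and 1.06) were higher in the PGCCs of both.

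In daughter cells compared with parental cells, 1 of the 33 was higher and 0 lower in Hey (6.31% and 3.73% of all genes), and 7 were higher and 2 lower in SKOV3 (15.1% and 6.34% of all genes). ABCC2, an exporter of glutathione conjugates and drugs, went from 0.718 to 28.3 TPM in SKOV3 daughter cells. OSGIN1 went from 3.35 to 14.5 TPM and GCNT1 from 41.3 to 3.56 TPM. Between the lines, 14, 17 and 18 of the 33 were higher in SKOV3 in parental cells, PGCCs and daughter cells and 1, 2 and 4 lower, where 24.2%, 29.6% and 29.5% of all genes were higher and 11.5%, 13.4% and 12.3% lower.

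**Figure D5:**
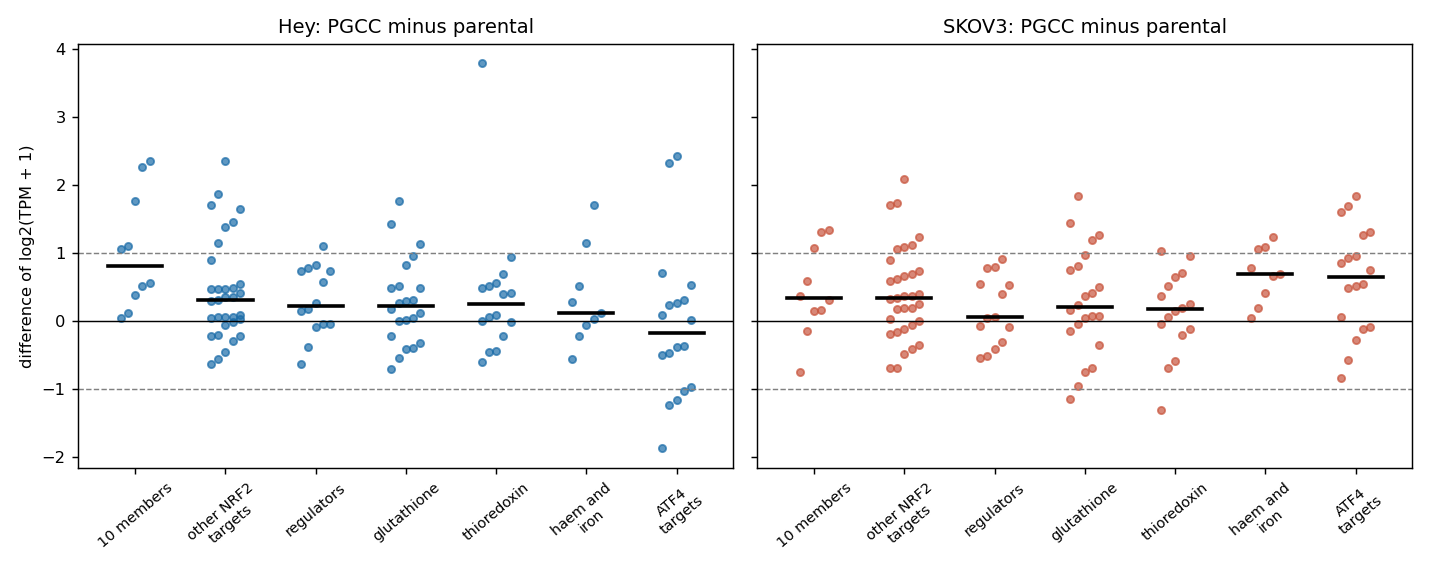
Difference of log2(TPM + 1) between PGCCs and parental cells, in Hey and in SKOV3, 1 point per gene in each gene list, with the list's median as a bar and dashed lines at 2-fold. The bar of the 10 members stands at 0.81 for Hey and 0.33 for SKOV3, and the other NRF2 targets have 7 of 33 points above the upper line and none below the lower line in both. The trend over GC content was not removed from the points.

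Genes that work beside the 10 were read in the same way, against the same shares of all genes in PGCCs (7.67% higher and 5.22% lower in Hey, 9.94% and 4.96% in SKOV3). Their SKOV3 PGCC values likewise keep the trend over GC content. Of 9 genes of haem and iron handling, 2 were higher in Hey PGCCs (FTL and FTH1, the latter at 2119 TPM in parental cells and 4701 TPM in PGCCs). In SKOV3 PGCCs 3 were higher, namely the haem carrier SLC48A1 (24.0 to 57.9 TPM), BLVRB, a biliverdin reductase (22.0 to 47.9 TPM), and HMOX2, the constitutive haem oxygenase (45.1 to 94.8 TPM). Of 22 glutathione genes, which include GCLM, GCLC and SLC7A11, 3 were higher in Hey PGCCs and none lower (median 0.22), and in SKOV3 PGCCs 4 were higher and 1 lower (median 0.20). GPX1, a glutathione peroxidase, went from 96.5 to 234 TPM in SKOV3 PGCCs, and GSTA4, which conjugates lipid aldehydes, from 0.359 to 36.9 TPM in SKOV3 daughter cells. Of 15 paralogs of the 10 genes, 8 passed the filter, of which 1 was higher in Hey PGCCs and 3 in SKOV3 PGCCs, with none lower.

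Of 16 thioredoxin and peroxiredoxin genes, which include TXNRD1 and SRXN1, 1 was higher in Hey PGCCs and none lower, and 1 was higher and 1 lower in SKOV3 PGCCs. TXNIP, the inhibitor of thioredoxin, was the higher gene in Hey and the lower gene in SKOV3, and went from 14.1 to 208 TPM in Hey PGCCs and from 209 to 83.6 TPM in SKOV3 PGCCs. TXNIP was at 14.2 TPM in SKOV3 daughter cells. The peroxiredoxin PRDX2 was at 195 TPM in SKOV3 parental cells and 9.22 TPM in daughter cells.

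Across the 6 libraries most pairs of the 10 genes correlated above 0, as a description over points that share line and processing. Of their 45 pairs, 43 had a Pearson correlation of log2 levels above 0 (median 0.680), and the highest were NQO1 with GCLC (0.954) and with SRXN1 (0.944). The exceptions were TXNRD1 with AKR1C2 (-0.556) and with SLC7A11 (-0.152). The share of such pairs among all genes was not taken, so the count does not set the group apart. Many genes differ between the lines as a whole, 31.8% of all being higher in every SKOV3 library than in any Hey library. Among 10791 genes with a mean of at least 5 TPM, the gene whose profile was most like that of AKR1C1 was DNAJB2, of NQO1 MAP2K1, of GCLC ENAH and of SRXN1 NPIPB5. For the others it was IFIT3 (HMOX1), TCP11L1 (GCLM), PSG5 (TXNRD1), USP8 (SLC7A11), PLAGL1 (AKR1C2) and TUBB3 (AKR1C3), and over all 10 the correlation was at least 0.990 with 6 points each.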

How the data were processed

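Bulk RNA of the Hey and SKOV3 states was sequenced, reads were trimmed with fastp and quantified by the authors with salmon 0.14.1 against an hg38 transcriptome. The deposited values are TPM per gene symbol. The step from transcripts to symbols and the annotation release are not given in the sources used here. The authors report similar totals of mapped reads for all samples. TPM keeps no read counts per gene, so no counting error is given here. A TPM is relative to its library and does not give RNA per cell.

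Differences were taken on log2(TPM + 1) and called at 2-fold, without a test, over genes averaging 1 TPM or more. limma 3.58.1 in R 4.3.3 (state and line, trended variance, Benjamini-Hochberg adjustment over all those genes) used the lines as the only repeat, and its script was tested on simulated data. Alternatives were other pseudocounts and filters, median ratio scaling, omission of mitochondrial genes, a 1.5-fold call and removal of the joint trend over GC content and transcript length. All 10 members are named, as are the regulators NFE2L2, KEAP1, BACH1, SQSTM1 and small MAF genes, genes among the 3 largest differences of a list, and for each member the most correlated gene. HMOX2 and other list genes were named by that rule, and 1 gene it names is not reported here. The members and lists were chosen with earlier results of these data known. Element searches used GENCODE 44 starts on GRCh38 and RefSeq windows.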

Additional observations from a re-analysis of the deposited data

Results flagged for a closer look

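The Hey and SKOV3 libraries lay on opposite sides of the reference state for several of the genes. Each state of a line had 1 library, so the difference between the lines was not tested. Values are the SKOV3 difference minus the Hey difference on the log2(TPM + 1) scale.

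For PGCCs compared with parental cells, GCLM gave -1.90 (Hey 1.76, SKOV3 -0.14) and SLC7A11 gave -0.87 (Hey 0.11, SKOV3 -0.75). With the trend over GC content and transcript length removed, the SKOV3 value for GCLM was 0.41, on the same side as Hey.

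For daughter cells compared with parental cells, HMOX1 gave 2.36 and NQO1 gave 1.93, both higher in SKOV3 daughter cells and lower in Hey daughter cells, although HMOX1 in Hey was -0.03 from the parental level and 0.038 without mitochondrial genes. GCLC gave 1.01 and SRXN1 gave 0.94 in the same direction. AKR1C2 gave -1.96 and AKR1C1 gave -0.49, being higher in Hey daughter cells and lower in SKOV3 daughter cells, although AKR1C1 in SKOV3 was -0.01 from the parental level and 0.083 without mitochondrial genes.

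For daughter cells compared with PGCCs, which share the daughter libraries with the comparison above, HMOX1 gave 3.29, NQO1 gave 2.73 and TXNRD1 gave 1.61. SRXN1 gave 1.35, GCLM 1.15, SLC7A11 0.94 and GCLC 0.89. All 7 were lower in Hey daughter cells and higher in SKOV3 daughter cells than in the PGCCs of their line. With the trend over GC content and transcript length removed, GCLM (-0.10), GCLC (-0.14) and SLC7A11 (-0.47) were lower in SKOV3 daughter cells too.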

How the results depend on the processing

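Within a line, no paired analysis was possible because each state has 1 library, and for the same reason none could be left out. Across lines, the line term of the limma model pairs the states. Of the members' differences under the alternatives, 582 kept direction and side of the call in use, 26 newly reached it, 8 no longer did and 14 reversed. Of the 26, 22 were unchanged values that passed only the lower 1.5-fold call. Omitting the filter or raising it to a mean of 5 TPM left every member's value unchanged. The 90 results of each were therefore the same by construction. The 68 kept under the 1.5-fold call also had unchanged values. Median ratio scaling turned GCLC in Hey PGCCs minus parental (-0.035), TXNRD1 in Hey daughter minus parental (-0.083), AKR1C3 in SKOV3 daughter minus parental (-0.070) and HMOX1 in SKOV3 minus Hey parental (-0.054), and left 0 genes higher in SKOV3 daughter cells than PGCCs and 0 higher in Hey daughter than parental cells. Omitting mitochondrial genes turned HMOX1 in Hey daughter minus parental (0.038), AKR1C1 in SKOV3 daughter minus parental (0.083) and the limma line term of TXNRD1 (0.023), and gave 2 higher in SKOV3 daughter cells than PGCCs, as did a pseudocount of 0.1. Removing the joint trend over GC content and transcript length turned GCLM (0.41) and SRXN1 (-0.025) in SKOV3 PGCCs minus parental, GCLM (-0.10), GCLC (-0.14) and SLC7A11 (-0.47) in SKOV3 daughter minus PGCC, HMOX1 in parental SKOV3 minus Hey (-0.025), and SRXN1 (-0.21) and SLC7A11 (0.097) in PGCC SKOV3 minus Hey, where 1 gene was then lower in SKOV3, HMOX1 (-1.59).

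A 1.5-fold call gave 3 higher in SKOV3 daughter cells than PGCCs, 3 lower in Hey daughter than parental cells, 8 lower in Hey daughter cells than PGCCs, 1 lower in SKOV3 PGCCs than parental cells and 4 higher in SKOV3 daughter than parental cells. Between lines it gave 8 higher in SKOV3 parental cells, and 5 higher and 2 lower in SKOV3 PGCCs. In limma, the 1 higher and 2 lower genes of PGCCs and the 2 lower of daughter cells became 0 with a pseudocount of 0.1, without a filter, at a mean of at least 5 TPM and without the line term. Without a filter, fitted over genes above 0 in a library, the line term was passed by 183 genes higher and 146 lower in SKOV3. The cause of these changes was not tested. Each state rests on 1 library. TPM keeps no read counts per gene, so the counting error of low levels such as AKR1C2 in Hey is not given.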

Other observations

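SLC7A11 is also a target of ATF4, the transcription factor of the amino acid and stress response, and 18 genes of that response were read beside it. In Hey PGCCs compared with parental cells 2 were higher and 4 lower (median -0.18), and in SKOV3 PGCCs 5 were higher and 0 lower (median 0.65), where 7.67% and 5.22% of all genes were higher and lower in Hey and 9.94% and 4.96% in SKOV3. The stress genes ATF3 (10.1 to 58.8 TPM) and DDIT3 (16.7 to 87.9 TPM) were higher in Hey PGCCs, while PHGDH, the first enzyme of serine synthesis, went from 278 to 75.0 TPM. In SKOV3 PGCCs the largest differences were in CHAC1, which degrades glutathione (1.79 to 8.98 TPM), the amino acid transporter SLC7A5 (123 to 403 TPM) and NUPR1 (3.55 to 12.8 TPM). The trend over GC content in SKOV3 PGCCs was not removed from the values of these 18 genes. In parental cells 11 of the 18 were lower in SKOV3 than in Hey and 3 higher, beside 11.5% and 24.2% of all genes. SLC7A11 itself was 61.3 TPM in SKOV3 and 36.8 TPM in Hey parental cells.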
